A study of Mus musculus with 9 samples.

Results

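The regions described here are the peaks deposited for Stat5a in mouse CD4+ T cells after 2 rounds of Th2 differentiation. They are set against the IgG control of the same stage. The authors deposited 9791 peaks for the Stat5a library, in coordinates of the mm8 mouse build. With 2 mitochondrial peaks left out and overlapping peaks joined, 9556 regions remained, of 43766 nuclear regions in the 6 peak lists of the series joined together. They cover 3.63 Mb. Both libraries come from CD4+ T cells carried through 2 rounds of Th2 differentiation, one precipitated with a Stat5a antibody and the other with IgG, a control antibody that recognises no transcription factor. The series also holds Stat5b libraries, and libraries of 8 h and 13 h, which enter below only as readings at the Stat5a peaks. The sources used here do not give strain, age or sex of the mice, or any pooling. Each antibody and stage has 1 library, so every comparison is between libraries, with 95% intervals that cover counting error only and no p-value. Reads carry no molecular identifiers, so copies made by PCR are not independent molecules. These are bulk cells, so a site bound in fewer cells and a site bound less in each cell cannot be told apart.

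Stat5a is a transcription factor that waits in the cytoplasm until a cytokine receptor such as that of IL-2 engages its JAK kinases. It is then phosphorylated, pairs with another Stat5 molecule, enters the nucleus and binds DNA at enhancers and promoters. Stat5b is its close relative, with a similar DNA binding domain. In CD4+ T cells Stat5 signalling sustains growth and survival and is needed for Th2 differentiation, in which the cells acquire the ability to make IL-4. Known Stat5 targets include Cish and Socs2, which encode inhibitors that act back on cytokine signalling, Il2ra, which encodes a chain of the IL-2 receptor, and Bcl6, which encodes a transcriptional repressor. In the RefSeq gene table for build GRCm38.p6 these genes lie on chromosomes 9, 10, 2 and 16. Peaks of mm8 cannot be placed on genes of another build, so regions are named by position, and no peak was assigned to a gene.

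The Stat5a library held 6645271 mapped reads at 4050353 distinct combinations of start and strand, and the IgG library 5787254 reads at 4083445. Distinct starts were 61.0% of the Stat5a reads and 70.6% of the IgG reads. Read levels are given as RPM, reads per 1000000 of the library, counted where the 5' end of a read falls in a region. On distinct starts a read that repeats an earlier start and strand is not counted, and RPM is then per 1000000 distinct starts. Reads of 24 bp made up 54.5% of the Stat5a library and 77.3% of the IgG library, the others being 25 bp long. Starts of the 24 bp reads lay 1 bp downstream. At that offset 0.643% of the 25 bp Stat5a starts recurred among 24 bp starts, against 0.457% at no offset, and for IgG the shares were 0.629% and 0.494%. Starts shared between the read lengths were rare, and both lengths are given below as readings of the same library.

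Stat5a reads were concentrated in the peaks and IgG reads much less so. Of the Stat5a reads, 4.58% (Wilson interval 4.56 to 4.60) lay in the peaks, against 0.834% (0.827 to 0.841) of the IgG reads. This is 12.6 RPM per kb against 2.30, a ratio of 5.49 (5.44 to 5.54, exact conditional interval). On distinct starts 3.82% of Stat5a and 0.451% of IgG lay in the peaks, a ratio of 8.46 (8.33 to 8.59). The peaks were called from the Stat5a library itself, so an excess in that library is favoured by the choice and is no test of binding.

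A small set of places accounted for much of the IgG signal in the peaks. The 10 peaks with the most IgG reads held 5.54% of the Stat5a peak reads and 41.7% of the IgG peak reads, and the 100 with the most held 9.62% and 54.2%. Without the 63 peaks that had 10 or more distinct IgG starts, a set chosen after the data were seen and by IgG itself, the ratio was 10.7 (10.5 to 10.8). The fullest of these places was on chromosome 2 from 98467000 to 98468244, with 7024 Stat5a reads and 8423 IgG reads, or 1057 and 1455 RPM. Stat5a was lower there than IgG, at a ratio of 0.726 (0.703 to 0.750) on all reads, and on distinct starts the ratio was 1.05 (0.908 to 1.22). Its neighbours from 98465648 to 98466082 and from 98464404 to 98465002 had 341 and 206 RPM in Stat5a, against 509 and 325 in IgG. The peak on chromosome 14 from 39187416 to 39187911 had 264 RPM in Stat5a, against 336 in IgG. The one on chromosome 9 between 24292348 and 24292621 had 170.5 RPM in Stat5a, against 260.2 in IgG. All 5 had intervals of the ratio wholly below 1 on all reads, and intervals that span 1 on distinct starts.

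**Figure D1:**
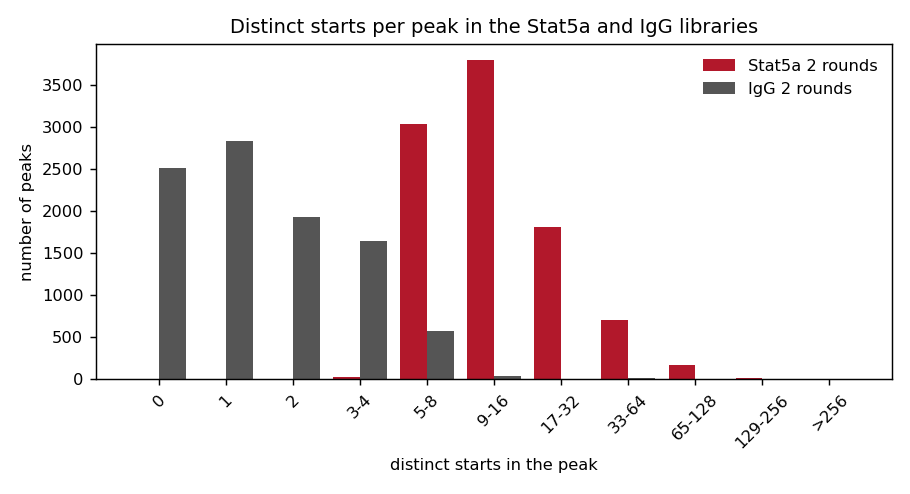
Number of peaks (vertical axis) by the distinct starts they hold (horizontal axis), in the Stat5a library (red) and the IgG library (grey) after 2 rounds, for all 9556 peaks. Stat5a peaks crowd between 5 and 16 distinct starts, while 2505 peaks hold 0 IgG starts and 2827 hold 1.

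Single peaks were mostly shallow. The median peak held 20 Stat5a reads and 2 IgG reads, or 11 and 1 distinct starts. The emptiest peaks had 4 distinct Stat5a starts and the fullest 388. Between the 5th and the 95th percentile Stat5a ran from 6 to 44 distinct starts, and IgG from 0 to 5. No IgG read fell in 2505 peaks (26.2%). Between 5 and 8 distinct starts lay 3031 peaks by Stat5a and 574 by IgG, and between 9 and 16 lay 3793 and 42. Signal was also spread over the list, since the 10 fullest peaks held 1.51% of the distinct Stat5a starts in peaks, the 100 fullest 7.49% and the 1000 fullest 33.6%.

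The interval of the ratio of Stat5a to IgG lay wholly above 2 in 5811 peaks (60.8%), and wholly below 0.5 in 0 peaks (0%). On distinct starts 3080 peaks (32.2%) passed above 2 and 0 (0%) below 0.5. Outside the peaks, 5.7% of 118784 windows of 500 bp with at least 10 reads in both libraries together passed above 2 on all reads and 1.18% passed below 0.5. On distinct starts 0.362% of 10784 such windows passed above 2 and 0.0278% below 0.5. These windows are those left once the Stat5a peaks were taken out, and were chosen by counts that include Stat5a. Of the 10784, 54.5% held a Stat5b peak of 2 rounds. The shares in these windows are thus shaped by the choice and are not a background rate for the peaks. The control against the control, IgG after 2 rounds over IgG at 13 h, passed above 2 in 1.7% of windows on all reads and 0.174% on distinct starts, and below 0.5 in 1.28% and 0.0193%. Depth limits the count in peaks: beside 0 IgG starts a peak needed 10 distinct Stat5a starts to pass, and 3796 peaks (39.7%) had fewer. On all reads it needed 11 Stat5a reads, and 1147 peaks (12.0%) had fewer. At the threshold on distinct starts, the peaks just inside had 17 Stat5a and 2 IgG starts, and those just outside 32 and 7. An excess of any size, with the interval wholly above 1, was found in 91.5% of peaks on all reads and in 77.5% on distinct starts. In 38 peaks Stat5a was below IgG in value on all reads, and in 17 of them the interval lay wholly below 1. On distinct starts these numbers were 20 and 1.

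A sheared fragment is read from either end, so reads of the plus and minus strands are displaced around a bound site. In Stat5a, on distinct starts, 5' ends on the plus strand gathered upstream of the centre and those on the minus strand downstream of it. The commonest distance from a plus strand start to a minus strand start was 88 bp, both at single distances and averaged over 21 neighbouring distances. In 24 bp reads alone it was also 88 bp, but in 25 bp reads alone it was 24 bp, and on all mapped reads 25 bp, about the length of a read. In the IgG library the commonest distance at the same peaks was 25 bp. It was also 24 bp in Stat5a at 8 h, 25 bp in Stat5a at 13 h and 24 bp in Stat5b at 8 h, but 94 bp in Stat5b at 13 h. Averaged over 21 neighbouring distances these libraries, in the same order, gave 27, 86, 27 and 90 bp, and IgG of 2 rounds 26 bp. In the 9493 peaks with under 10 distinct IgG starts it was 100 bp in Stat5a at 8 h and 117 bp at 13 h. In Stat5b at 8 h the commonest distance was then 94 bp. Stat5a of 2 rounds gave 88 bp in those peaks, or 98 bp averaged. There the commonest distance was 26 bp in IgG of 2 rounds, 27 bp in IgG of 8 h and 114 bp in IgG of 13 h. The density of Stat5a starts within 100 bp of the centre was 7.41 times that between 400 and 600 bp away, and in IgG the same ratio was 1.66. In the 9493 peaks with under 10 distinct IgG starts it was 7.44 for Stat5a and 1.42 for IgG, so IgG too had a low rise at the centres. At these same peaks the IgG libraries of 8 h and 13 h had ratios of 1.72 and 1.65. The 63 peaks with 10 or more distinct IgG starts differed, with a commonest distance of 24 bp in both Stat5a and IgG and centre ratios of 6.32 and 7.23.

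**Figure D2:**
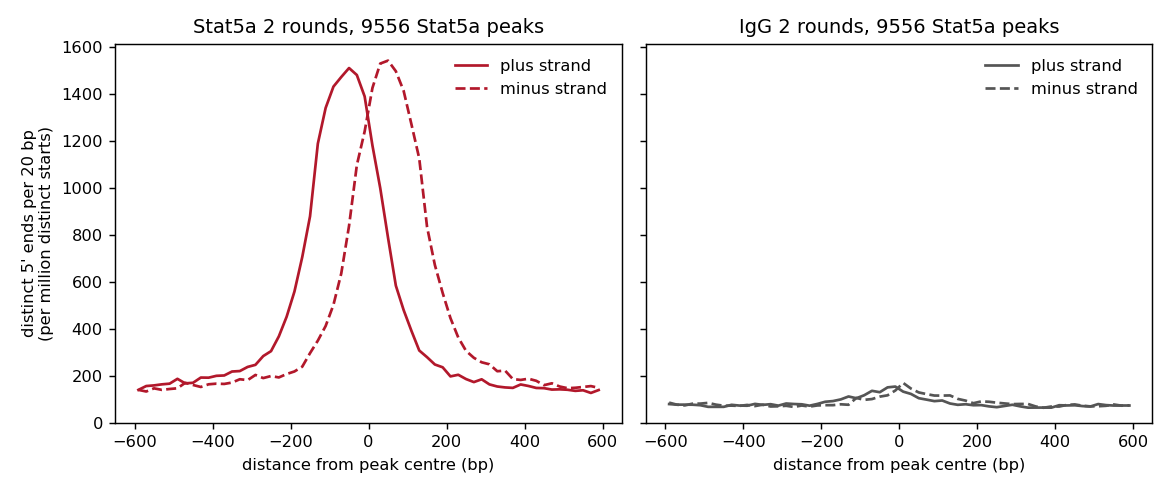
Distinct 5' ends per 20 bp, per 1000000 distinct starts (vertical axis), against the distance from the peak centre in bp (horizontal axis), summed over 9556 peaks, for the plus strand (solid) and the minus strand (dashed). In Stat5a (left) the strands are displaced, with a commonest distance of 88 bp between plus and minus starts, and in IgG (right) the rise at the centre is low.

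The offset was then read in weak and strong peaks, divided by distinct Stat5a starts into 4 sets of 2389. The commonest distances in Stat5a were 115, 78, 85 and 93 bp from the emptiest to the fullest set. Averaged over 21 neighbouring distances they were 94, 83, 88 and 90 bp. The rise at the centre grew, with ratios to the flanks of 5.09, 5.71, 6.83 and 10.3 in Stat5a, against 1.22, 1.40, 1.61 and 2.14 in IgG. The sets were divided by the same Stat5a starts, so the growth in Stat5a is favoured by the choice and is a description. In the Stat5b library of the same stage, read at these peaks, the commonest distance was 123 bp. Single peaks could be read where they held at least 30 distinct Stat5a starts with at least 10 on each strand. In these 1045 peaks the mean minus strand position lay a median of 100.4 bp downstream of the mean plus strand position, between 18.6 and 173.6 bp from the 5th to the 95th percentile. The offset was above 0 in 97.3% of them. In the 44 of them with 10 or more distinct IgG starts it was above 0 in 95.5%, with a median of 48.6 bp. Only starts inside the peak limits entered, and those limits follow the reads, as described below. An offset above 0 is thus favoured by the choice and is no test of binding.

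The limits of the deposited peaks follow the reads closely. A plus strand 5' end of the Stat5a library lay exactly at the left limit of 5281 of 9789 deposited nuclear peaks (53.9%), and a minus strand 5' end lay 93 bp inside it in 4570 (46.7%). At the right limit a minus strand 5' end lay 2 bp inside in 5411 peaks (55.3%) and a plus strand 5' end 95 bp inside in 4416 (45.1%). Over other distances up to 200 bp the median number of such matches was between 36 and 123 peaks. These distances are those of reads drawn out to about 95 bp from their 5' end. The median width was 347 bp, with quartiles at 272 and 450 bp and a range from 101 to 1884 bp. Width and distinct Stat5a starts had a Spearman correlation of 0.849 across peaks, a description of values that share the same reads. The fullest set had a median width of 528 bp and the emptiest 250 bp.

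Peaks were ranked by distinct Stat5a RPM above IgG, and strongest is used in that sense. The strongest peak was on chromosome 9 from 107153464 to 107155347, which was also the widest, at 1884 bp. It held 861 Stat5a reads and 9 IgG reads, or 129.6 and 1.56 RPM, a ratio of 83.3 (43.7 to 183). On distinct starts it held 388 and 7, a ratio of 55.9 (26.9 to 140). Both read lengths had the excess, at 91.6 (41.8 to 251) in 24 bp reads and 60.3 (20.5 to 294) in 25 bp reads. Its reads were not even along the region: 145 of the 388 distinct starts lay in the fullest 200 bp, and a separate 200 bp held another 46. Through the stages of 8 h, 13 h and 2 rounds, Stat5a there measured 87.2, 82.1 and 129.6 RPM. Stat5b measured 306.8 RPM after 2 rounds.

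The second strongest peak, on chromosome 16 from 23903513 to 23904670, held 513 Stat5a reads and 4 IgG reads, or 77.2 and 0.691 RPM. Its ratio was 112 (43.4 to 411), and 63.3 (24.4 to 234) on distinct starts. Of its 251 distinct starts, 106 lay in the fullest 200 bp and 59 in a separate 200 bp. The next was on chromosome 1 from 60990288 to 60991533, with 67.0 RPM of Stat5a against 2.94 of IgG, a ratio of 22.8 (14.1 to 39.5). This was the single peak among the 20 strongest where Stat5a was lower after 2 rounds than at 8 h, at 72.5, 33.1 and 67.0 RPM through the 3 stages. The peak on chromosome 8 from 84398507 to 84399510 was one of 3 of the 20 in which Stat5a exceeded Stat5b, at 56.7 against 43.6 RPM, with IgG at 1.90. Another, on chromosome 10 from 92081199 to 92081978, had 61.5 RPM of Stat5a and 56.6 of Stat5b, with IgG at 1.21. The last, from 43964587 to 43965359 on chromosome 2, had 46.3 RPM of Stat5a and 36.2 of Stat5b, with IgG at 0.346.

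The chromosome 10 peak from 92081199 to 92081978 had much less Stat5a signal at 8 h and 13 h than after 2 rounds. It held 3.19, 3.85 and 61.5 RPM of Stat5a through the 3 stages, and 0.728 and 4.21 RPM of Stat5b at 8 h and 13 h. The IgG libraries of 8 h and 13 h had 0.641 and 0.664 RPM there, and the peak was in both earlier Stat5a lists. After 2 rounds 409 Stat5a reads faced 7 IgG reads, a ratio of 50.9 (24.5 to 127). It was single, with 65.1% of its distinct starts in the fullest 200 bp and no other peak within 10 kb. Its width of 780 bp was low among the 20 strongest, which ran from 731 to 1884 bp, but above the median of 347 bp in the list. The peak on chromosome 13 from 85901299 to 85902046 was high at every stage, with 33.9, 22.5 and 39.9 RPM through the stages, against 0.518 RPM of IgG after 2 rounds.

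All 20 strongest peaks had an interval of the ratio to IgG wholly above 2, on all reads, on distinct starts, in 24 bp reads and in 25 bp reads. Their ratios ran from 16.2 to 213 with a median of 38.7, and on distinct starts from 15.4 to 140 with a median of 28.8. Since they were ranked by this excess, the values describe them and test nothing. They lay on 11 chromosomes, and 17 of them had another Stat5a peak within 10 kb. Each was also in the Stat5a lists of 8 h and 13 h and in the Stat5b list of 2 rounds. No start dominated in any of them, since the commonest start and strand held between 1.28% and 4.86% of the Stat5a reads. The fullest 200 bp held between 37.4% and 77.0% of the distinct starts. On chromosome 2 from 43964587 and chromosome 13 from 85901299 a separate 200 bp added 1.44% and 0.806% of the starts, whereas on chromosome 9 from 107165764 it added 26.8%, and on chromosome 5 from 151644685 it added 25.8%. The strongest peaks thus included both single compact summits and regions with more than one. One peak, on chromosome 15 from 9506684 to 9508066, had the mean minus strand position 46.9 bp upstream of the plus strand. Its ratio was 36.4 (18.2 to 85.4) in 24 bp reads and 4.26 (2.22 to 9.16) in 25 bp reads.

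**Figure D3:**
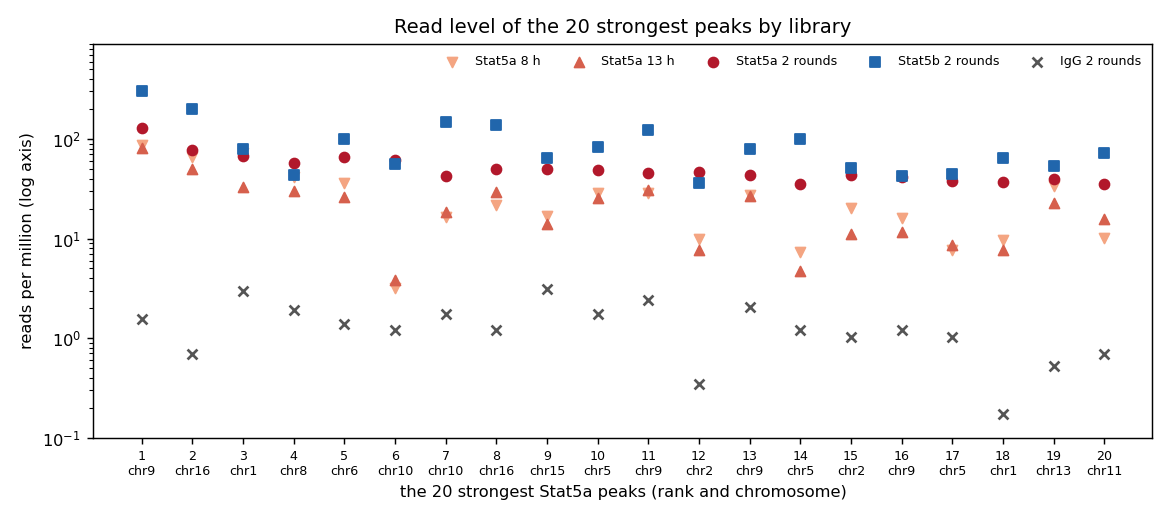
RPM on a log axis (vertical) for the 20 strongest Stat5a peaks in order of rank (horizontal, with the chromosome), as points for Stat5a at 8 h, 13 h and 2 rounds, Stat5b at 2 rounds and IgG at 2 rounds. Stat5a after 2 rounds lies between 35.2 and 129.6 RPM and IgG between 0.173 and 3.11 RPM in every peak shown.

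Peaks with at least 30 distinct Stat5a starts and 0 IgG reads have no finite ratio and were placed first in the order of ratios. Their bounds are below the measured ratios of several peaks with few IgG reads, such as 140 on distinct starts in the peak on chromosome 2 from 43964587. The fullest of them, on chromosome 2 from 80546369 to 80547079, held 157 Stat5a reads at 78 distinct starts. This is at least 26.2-fold higher than IgG on distinct starts, with the IgG library set at a floor of 3 counts for the region, and the exact interval of the ratio begins at 20.8. It had 0 Stat5a reads at 8 h, 1.56 RPM at 13 h and 23.6 RPM after 2 rounds. The next held 70 distinct starts, at least 23.5-fold higher, on chromosome 1 from 145826844 to 145827465. One of 69 starts, at least 23.2-fold higher, lay on chromosome 10 from 67953594 to 67954232. Then came 66 starts, at least 22.2-fold higher, on chromosome 16 from 78119403 to 78120026, and 60 starts, at least 20.2-fold higher, on chromosome 9 between 77741060 and 77741763. The exact intervals of these 4 begin at 18.6, 18.4, 17.5 and 15.9, below the values at the floor. Stat5b, which did not choose these peaks, stood at between 18.7 and 34.5 RPM in the 5.

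Of the 5 widest peaks, 4 were strong in Stat5a relative to IgG and 1 was not. The peak on chromosome 11 from 3092762 to 3094342, 1581 bp wide, had 59.3 RPM of Stat5a against 36.1 of IgG, a ratio of 1.64 (1.38 to 1.95). Its starts were displaced between strands by 111 bp. On chromosome 15 from 9407363 to 9408864 Stat5a stood at 26.6 RPM against 2.07 of IgG, and on chromosome 5 from 129325983 to 129327413 at 15.0 against 2.25. The peak on chromosome 5 was at 0.958, 2.05 and 15.0 RPM of Stat5a through the 3 stages.

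Peaks often had near neighbours. Of 9535 gaps between neighbouring peaks on a chromosome, 771 (8.09%) were under 1000 bp and 2434 (25.5%) under 10 kb, with a median of 50493 bp. When peaks less than 10 kb apart were taken as a group, there were 7122 groups: 5580 single peaks, 1051 pairs, and 491 groups of 3 or more. Grouped peaks were 41.6% of all peaks, and 88 groups held 5 or more. Peaks in groups of 5 or more had medians of 15 distinct Stat5a and 2 distinct IgG starts, against 10 and 1 in peaks alone. Their mean of distinct IgG starts was 3.25, against 1.75. Median widths were 395 bp in groups of 5 or more, 366 bp in groups of 2 to 4 and 332 bp alone. The interval lay wholly above 2 on distinct starts in 45.6% of peaks in groups of 5 or more, in 37.0% of those in groups of 2 to 4 and in 27.9% of those alone. The order of these shares was not tested, and width was not separated from grouping.

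Ranked by distinct Stat5a RPM above IgG, the first group lay on chromosome 9 from 107152490 to 107172241, and its 8 peaks spanned 19.8 kb. It held 1588 Stat5a and 53 IgG reads, a ratio of 26.1 (19.8 to 35.0), and 188 against 8.33 RPM on distinct starts. The strongest peak of the whole list held 50.9% of its distinct starts. Other peaks of the group stood at 45.4 RPM from 107165764 to 107167293 and at 43.2 RPM from 107170790 to 107171520, against 2.42 and 2.07 RPM of IgG. The remaining 5 stood between 1.66 and 9.48 RPM of Stat5a and between 0 and 1.38 RPM of IgG, and 4 of the 8 passed above 2 on distinct starts.

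**Figure D4:**
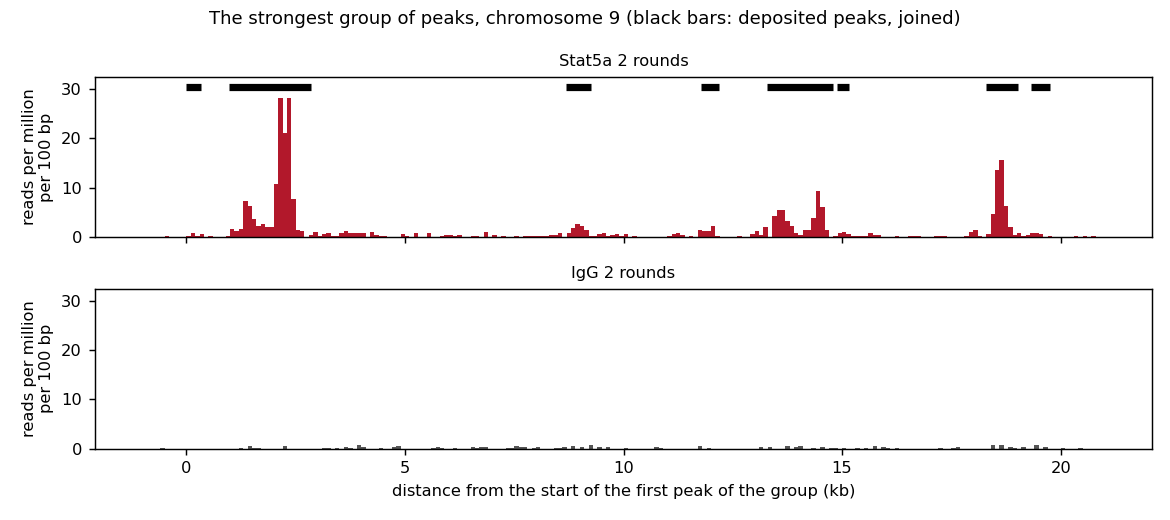
RPM per 100 bp (vertical axis) along the strongest group of peaks on chromosome 9, against the distance in kb from the start of its first peak (horizontal axis), for Stat5a (upper) and IgG (lower) after 2 rounds, with the joined deposited peaks as black bars. Stat5a reads stand in separate summits, and IgG reads are low throughout.

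The group of 17 peaks on chromosome 2 from 11533859 to 11582209 had the most members. It held 638 distinct Stat5a and 64 distinct IgG starts, or 157.5 and 15.7 RPM, a ratio of 10.1 (7.76 to 13.2). Its signal was spread, with 12.5% of the distinct starts in the fullest peak, and 11 of the 17 peaks passed above 2 on distinct starts. On chromosome 1 from 108428268 to 108448423, 6 peaks had 89.6 against 5.14 distinct RPM, and on chromosome 2 from 43961097 to 43989136, 8 peaks had 82.0 against 3.67. The 14 peaks on chromosome 16 from 49690001 to 49725499 had 80.5 against 7.59, and the 7 on chromosome 15 from 9493826 to 9525988 had 79.5 against 6.86. The groups in places 7 to 10 stood between 63.5 and 76.8 distinct RPM of Stat5a and between 1.47 and 7.59 of IgG. In the last of them, on chromosome 16 from 23903513 to 23913513, the second strongest peak held 97.7% of the starts.

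Peaks were unevenly spread over chromosomes. Chromosome 11 was richest, with 683 peaks or 32.0 per 10000 distinct IgG starts of that chromosome, and chromosome 13 followed with 29.9. The poorest autosomes were chromosomes 18 and 14, with 17.5 and 18.0. The X chromosome had 170 peaks, 8.15 per 10000 IgG starts, so it held 1.78% of the peaks and 5.11% of the IgG starts. It was also low in the lists of Stat5a at 8 h and 13 h and of Stat5b after 2 rounds, where it held 1.57%, 2.03% and 1.69% of the peaks. The peaks it did have were like others in strength, with a median of 10 distinct Stat5a starts and 32.9% passing above 2 on distinct starts. Chromosome Y had 1 peak.

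Stat5b, whose library did not choose these regions, was enriched in most of them. Of its reads after 2 rounds, 7.06% lay in the Stat5a peaks, 8.47 times the IgG share (8.39 to 8.55). On distinct starts the ratio was 13.3 (13.1 to 13.5). The interval of the ratio of Stat5b to IgG lay wholly above 2 in 6444 peaks (67.4%), or 5326 (55.7%) on distinct starts. In windows of 500 bp outside the Stat5a peaks it did so in 11.7% on all reads and 14.2% on distinct starts. Only Stat5a peaks were left out of these windows, and the 31744 peaks of the Stat5b list were not. The windows were also chosen by counts that include Stat5b, so these shares are not a background rate for it. Both ChIP libraries are set against the same IgG library. Across peaks the distinct starts of Stat5a and Stat5b had a Spearman correlation of 0.820, beside 0.520 for Stat5a and IgG and 0.454 for Stat5b and IgG. These are descriptions, since wider peaks hold more starts of every library.

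A Stat5b peak was missing at 1335 Stat5a peaks (of 9556), and these were weaker. Their median was 7 distinct Stat5a starts, against 12 in the 8221 that overlapped a Stat5b peak, and their median width 269 bp against 368 bp. These 1335 include 4 of the 5 places with the most IgG reads. Distinct Stat5a starts there were 3.90 times IgG (3.75 to 4.06), and distinct Stat5b starts 1.81 times IgG (1.73 to 1.89). In peaks with a Stat5b peak the same ratios were 9.36 (9.20 to 9.52) and 15.6 (15.3 to 15.9). On all reads, which include the places of high IgG, the peaks without a Stat5b peak had 1.36 times IgG (1.34 to 1.39) for Stat5a and 0.736 times IgG (0.723 to 0.750) for Stat5b, so the direction for Stat5b turned with the count used. Among them, the 5 with the most Stat5a reads were all places of high IgG, the 4 above and one on chromosome 9 from 35054817 to 35055334, with 177 RPM of Stat5a, 189.9 of IgG and 100.6 of Stat5b. Ranked by distinct starts above IgG instead, an order added after the data were seen, the next below the chromosome 2 place was on chromosome 12 from 118834707 to 118835082. It held 18 distinct Stat5a starts and 1 of IgG, with 5.57 RPM of Stat5a and 1.57 of Stat5b on all reads. The peak on chromosome 13 from 20220144 to 20220469 also held 18 and 1, with 4.21 RPM of Stat5a and 0.914 of Stat5b.

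Fuller peaks recurred more often in the other lists. From the emptiest to the fullest of the 4 sets, a Stat5a peak of 8 h was found at 7.49%, 14.6%, 26.8% and 54.2% of the peaks, and one of 13 h at 12.2%, 23.0%, 38.8% and 69.0%. A Stat5b peak of 2 rounds was found at 64.8%, 85.3%, 95.1% and 98.9%. The sets ended at 8, 11, 18 and 388 distinct Stat5a starts. Wider peaks have more room to overlap, which was not separated from strength here. Read levels at 8 h and 13 h were above IgG in every set: Stat5a at 8 h was 3.68, 3.68, 3.99 and 5.42 times the IgG library of 2 rounds, and Stat5a at 13 h 3.12, 3.05, 3.20 and 4.19 times. Stat5a after 2 rounds was 9.47, 7.57, 7.35 and 9.11 times IgG, and Stat5b after 2 rounds 10.3, 10.6, 11.7 and 15.5 times. Both the peaks and the sets were chosen on the Stat5a library of 2 rounds. Its own ratios are thus shaped by the choice, and the course over the sets does not compare the factors.

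**Figure D5:**
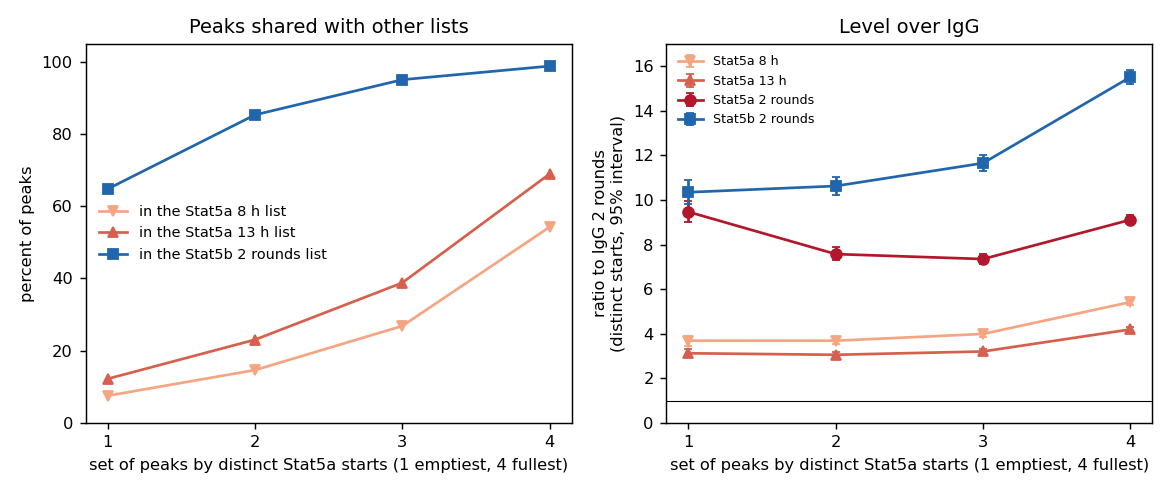
Left: percent of Stat5a peaks (vertical axis) that overlap a peak of another list, by set of peaks in order of distinct Stat5a starts (horizontal axis). Right: ratio of each library to IgG after 2 rounds on distinct starts, with 95% intervals as bars and a line at 1. Stat5b after 2 rounds reaches 15.5 in the fullest set. Stat5a after 2 rounds, whose library chose the peaks and the sets, lies between 7.35 and 9.47.

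In neither earlier Stat5a list were 5663 peaks (59.3%), while 1988 were in both and 1905 in one. The list of 8 h has 5491 joined peaks from 3130228 reads, and that of 13 h 14082 from 8311042 reads. Their median widths are 301 and 243 bp. List size, width and depth limit the overlap and were not separated from binding, so absence from a list is not a gain after 2 rounds. Peaks in neither list averaged 2.75 distinct RPM of Stat5a after 2 rounds, against 0.312 of IgG. At 8 h and 13 h they stood at 0.649 and 0.606 distinct RPM of Stat5a, against 0.254 and 0.277 in the IgG libraries of those stages. Peaks in both lists averaged 6.80, 4.79 and 7.40 distinct RPM of Stat5a through the 3 stages, against 0.813, 0.817 and 0.866 of IgG. Absence from an earlier list thus went with a low but not empty reading. Peaks in both lists were chosen with the reads of those stages, so their levels there are a description.

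The read lengths of the Stat5a library differed at some peaks. On all reads, 601 peaks (6.29%) had an interval of the ratio of 24 bp to 25 bp reads wholly above 2 and 422 (4.42%) wholly below 0.5. In windows outside the peaks the shares were 2.59% and 17.2%. On distinct starts 89 peaks (0.931%) passed above and 100 (1.05%) below, with 0% and 1.84% of windows. Reads of both lengths were found in 94.4% of peaks. Across all peaks the distinct starts of the read lengths had a Spearman correlation of 0.230, and across the 1076 peaks with at least 30 distinct starts 0.155. Peaks were called from both lengths together and the 1076 were chosen on their sum. Such a choice can lower a correlation between the parts of the sum, and whether it did so here was not tested. Against IgG of the same read length, 4149 peaks passed above 2 in 24 bp reads and 1415 in 25 bp reads, and 931 passed in both. Heaps of reads at one start were rare: a single start accounted for over 50% of the reads, where there were 20 or more, in 7 peaks for either library. Repeated starts were commoner in the peaks than outside, at 1.97 and 1.63 reads per distinct Stat5a start, and at 2.62 and 1.41 per distinct IgG start. The IgG value in peaks is weighted by few places, since 10 peaks held 41.7% of the IgG peak reads. The fullest of them had 8423 IgG reads at 353 distinct starts.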

How the data were processed

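The authors deposited, per the file contents and names, 1 list of mapped reads per library and 1 list of peaks per ChIP library in the mm8 build; values are starts and ends in bp (24 or 25 bp reads with strand and mismatch class), with no score. Neither the aligner nor the peak caller is stated in what was used here, nor whether IgG entered peak calling. Starts of 24 bp reads were moved 1 bp upstream. Nuclear peaks were joined where they overlapped, and 5' ends were counted in them. Ratios carry exact conditional (Clopper-Pearson) 95% intervals, shares Wilson intervals; a peak was called above or below IgG when the interval lay wholly above 2 or below 0.5. Peaks less than 10 kb apart formed groups. Strand offset was the commonest distance, up to 400 bp, between plus and minus starts within 400 bp of peak centres. List overlaps needed 1 bp. Depth was 6645271 Stat5a and 5787254 IgG reads. Regions named are the 20 strongest peaks, the 10 strongest groups (both by distinct Stat5a RPM above IgG), and 5 each of the widest, those with the largest ratio, the most IgG, and the fullest without a Stat5b peak. The regions and these lists were chosen with earlier results of these data known. The calling rule and the offset were tested on simulated data. Alternatives counted each start once, each read length alone, starts moved 75 bp, pooled IgG, peak subsets and other thresholds, scalings and gaps. Counts and intervals were computed with scipy 1.17.1 and numpy 2.4.6 under Python 3.11.15, tables with pandas 2.3.3 and plots with matplotlib 3.10.9. Counts near genes were planned but not made, since the annotation at hand is of another build.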

Additional observations from a re-analysis of the deposited data

Results flagged for a closer look

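Both mitochondrial peaks of the Stat5a list, left out of all counts above, held more Stat5a than IgG. From 5705 to 6481 Stat5a had 154 reads and IgG 79, or 75 and 50 distinct starts, a ratio of 1.51 (1.04 to 2.21) on distinct starts. From 13985 to 15718 the counts were 981 and 555 reads, or 362 and 302 distinct starts, a ratio of 1.21 (1.03 to 1.41). On all reads the ratios of these peaks were 1.70 (1.29 to 2.26) and 1.54 (1.39 to 1.71). Over the whole mitochondrial genome, on all reads, Stat5a stood at 619 RPM and IgG at 408, a ratio of 1.52 (1.44 to 1.60). Stat5b stood at 815 RPM, 2.00 times IgG (1.91 to 2.10). Outside the peaks, 39 windows of 500 bp passed above 2 against IgG on distinct starts, of 10784 tested. Between IgG of 2 rounds and IgG of 13 h, 9 of 5169 windows passed. Of the 39, 32 held a Stat5b peak of 2 rounds, 82.1% beside 54.5% of all windows tested, and 6 lay next to a window with a Stat5a peak. The fullest, on chromosome 14 from 62132001 to 62132500, held 14 distinct Stat5a starts and 0 of IgG.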

How the results depend on the processing

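The excess of Stat5a over IgG in the peaks kept its direction under every alternative run. Its ratio, 5.49, was 8.46 with each start counted once, 6.41 in 25 bp reads, 5.34 in 24 bp reads, 6.02 with IgG pooled over the stages, 5.04 in the upper 50% of peaks by Stat5a reads and 10.7 without peaks of 10 or more distinct IgG starts. For Stat5b in the same peaks the ratio, 8.47, was 13.3 with each start counted once, 10.1 against 25 bp IgG reads, 8.68 with starts moved 75 bp, 9.29 with pooled IgG, 8.03 in the upper 50% of peaks and 17.1 without peaks of 10 or more distinct IgG starts. The Stat5b library has no 24 bp reads, so that alternative gives it no value. The 5811 peaks above 2 were 3080 with each start counted once and 1415 in 25 bp reads alone, 8748 at a threshold of 1 and 2214 at a threshold of 4. Pooled IgG, with more control reads, gave 8308. The strand offset of 88 bp was 25 bp on all mapped reads and 24 bp in 25 bp reads alone, the length of a read; the cause was not tested. The 7122 groups were 4611 when formed from peaks called above IgG alone, and 2605 from those called on distinct starts, because fewer peaks entered. Of 190 values of the 38 named peaks under alternatives, 185 kept their side of the threshold and 5 lost a call, each in a single read length. No paired analysis was possible because each antibody and stage has 1 library, which also leaves no replicate to omit. The alternatives without peaks of 10 or more distinct IgG starts, the averaged offset (88 bp) and a threshold of 1 on distinct starts (7408 peaks) were added after the data were seen.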
